A study of Rattus norvegicus with 30 samples.

Results

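The 10 genes described here carry tryptophan to NAD or govern how its parts are reused: *Ido1*, *Afmid*, *Kmo*, *Kynu*, *Haao*, *Acmsd*, *Qprt*, *Nampt*, *Nadsyn1* and *Nnmt*. They were chosen by symbol, from what the enzymes are known to do, out of 32545 genes in the deposited count table, and each symbol had a single row. Earlier results of these data were known when they were chosen. Counts were available from the renal cortex (Cx) and the outer medulla (OM) of the right kidney of male Sprague-Dawley rats, an outbred strain, in 30 libraries. Rats of the LS groups ate 0.4% NaCl, those of HS14 ate 4.0% NaCl for 14 d and those of HS21 ate it for 21 d, with 5 libraries for each tissue and diet. The labels give no genotype beyond the strain. The methods give an age for the rats instrumented for blood flow but do not say that it holds for the rats sequenced, and each library is a piece of whole tissue that mixes all its cell types. The comparisons ask whether the pathway's mRNAs differed with the high salt diet in either tissue, and how they differed between the tissues.

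The kynurenine route begins when a dioxygenase opens the ring of tryptophan, and successive enzymes then shorten the product until quinolinate is reached, which QPRT joins to phosphoribose as the first committed step to NAD. ACMSD acts at the last branch before quinolinate and sends the carbon to picolinate and complete oxidation, so it competes with NAD formation. The proximal tubule and the liver are the tissues best known for making NAD in this way, whereas most other cells recycle nicotinamide through NAMPT, and NNMT takes nicotinamide out of that cycle by methylating it.

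To show the regulatory sequence of consecutive enzymes of the route, the 250 bases before the RefSeq start site are given for *Kynu*, *Haao* and *Qprt*, which were each lower in the Cx at HS21, and for *Kmo*, the gene of the same chain that was not called. They are from the rat build GRCr8, a later build than that of the counts. The stretch of *Kmo* lies at chr13:90089271-90089520 on the plus strand and that of *Kynu* at chr3:48188036-48188285 on the plus strand. That of *Haao* lies at chr6:16598075-16598324 on the plus strand and that of *Qprt* at chr1:191164007-191164256 on the minus strand. *Haao* is on the plus strand in GRCr8 but on the minus strand in the Rnor_6.0 model used for the counts, while the strand of the other 3 is the same in both. Each is read 5′ to 3′ on the strand RefSeq gives, and capitals mark letters that matched a searched motif.
Kmo: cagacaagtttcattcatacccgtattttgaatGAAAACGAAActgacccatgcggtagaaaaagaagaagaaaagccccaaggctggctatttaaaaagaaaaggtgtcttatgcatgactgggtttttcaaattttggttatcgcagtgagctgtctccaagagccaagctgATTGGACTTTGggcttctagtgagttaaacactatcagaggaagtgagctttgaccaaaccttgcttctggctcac
Kynu: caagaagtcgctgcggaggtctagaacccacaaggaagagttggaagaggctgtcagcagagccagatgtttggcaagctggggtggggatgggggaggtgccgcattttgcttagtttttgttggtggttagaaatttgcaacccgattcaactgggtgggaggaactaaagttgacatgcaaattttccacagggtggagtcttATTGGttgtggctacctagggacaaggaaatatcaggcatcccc
Haao: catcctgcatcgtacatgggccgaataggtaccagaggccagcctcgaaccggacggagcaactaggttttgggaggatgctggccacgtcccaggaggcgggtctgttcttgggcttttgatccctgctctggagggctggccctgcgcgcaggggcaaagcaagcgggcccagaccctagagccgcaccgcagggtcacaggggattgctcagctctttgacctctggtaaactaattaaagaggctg
Qprt: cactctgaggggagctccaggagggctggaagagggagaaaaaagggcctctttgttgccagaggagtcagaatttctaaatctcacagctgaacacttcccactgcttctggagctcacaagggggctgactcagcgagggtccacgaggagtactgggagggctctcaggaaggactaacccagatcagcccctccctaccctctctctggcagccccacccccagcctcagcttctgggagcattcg
Of the 10 genes, 6 have an entry in the RefSeq promoter table used here (those above, *Afmid* and *Nadsyn1*). Both strands of these 250 bases were searched for 6 motifs. The CCAAT box (CCAAT) was found in *Kmo* and *Kynu*, 2 of the 6, and in 34.0% of the 33469 promoters in the table. *Kmo* also held CAAAGTCCA, a form of the HNF4 site, 74 bases before the start on the opposite strand, which 0.338% of promoters held, and its letters overlap those of the CCAAT box. The core of an interferon response element, GAAA repeated after any 2 bases, was found in *Kmo*, 217 bases before the start, and in 3.41% of promoters. None of the 6 held the HNF1 core GTTAAT, the HNF4 form CAAAGGTCA or the TATA box TATAAA, which 6.45%, 0.3765% and 12.9% of promoters held. *Afmid*, *Haao*, *Qprt* and *Nadsyn1*, all lower at HS21, held none of the 6 motifs in this window.

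Some libraries stood apart before any comparison was made. Levels are CPM, the counts of a gene relative to the total of its library, after TMM scaling (a trimmed mean of log ratios) across the 30 libraries. Libraries held 5408126 (OM HS14 replicate 10) to 21842843 counts on genes, and the next lowest held 12748841. *Slc34a1*, the phosphate carrier of the proximal tubule, lay between 4171 and 6857 CPM in the Cx and between 127 and 4387 CPM in the OM, while *Umod*, made by the thick ascending limb, lay between 861 and 2208 CPM in the Cx and between 5703 and 13521 CPM in the OM. The tissue labels thus matched their markers, but replicate 2 of OM LS was the OM library with the highest *Slc34a1* (the next held 1466 CPM) and the highest *Slc12a3*, a distal convoluted tubule gene of the Cx (354 CPM against 50.6 CPM in the next). Summed over 19 proximal tubule markers, OM LS replicate 2 held 26521 CPM and OM LS replicate 5 held 2041 CPM, the extremes of the OM. Replicate 10 of Cx HS14 was also low for these markers, with 18360 CPM against 24812 to 25708 CPM in the other 4 libraries of its group.

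Seen per length, the genes fell into a clear order in the Cx on the LS diet, with the branch enzyme and the dioxygenase before it at the top. *Acmsd* stood at 203.7 ± 11.03 CPM per kb (SD, n = 5) and *Haao* at 202.7 ± 24.3, and their libraries overlapped. *Kmo* (78.4 ± 4.64 CPM per kb), *Qprt* (78.0 ± 6.55) and *Afmid* (72.1 ± 2.67) followed, each overlapping the next, with a gap to the pair above. *Kynu* (32.2 ± 3.11 CPM per kb) and *Nampt* (28.6 ± 2.13) overlapped each other, and *Nadsyn1*, at 15.02 ± 1.64 CPM per kb, lay below both without overlap. *Nnmt* was at 0.0701 ± 0.0839 CPM per kb. *Ido1* had no count. In the OM on LS *Haao* led with 239 ± 192 CPM per kb, followed by *Qprt* (54.5 ± 39.1), *Kmo* (51.8 ± 40.0), *Nampt* (48.4 ± 15.9), *Afmid* (37.6 ± 24.5), *Acmsd* (24.5 ± 30.2), *Kynu* (15.5 ± 11.96) and *Nadsyn1* (14.4 ± 8.12). Within these 8 each gene overlapped the one after it, and *Nadsyn1* lay above *Nnmt* without overlap. The place of *Acmsd* was the largest difference between the orders, from the top in the Cx to the sixth in the OM.

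**Figure D1:**
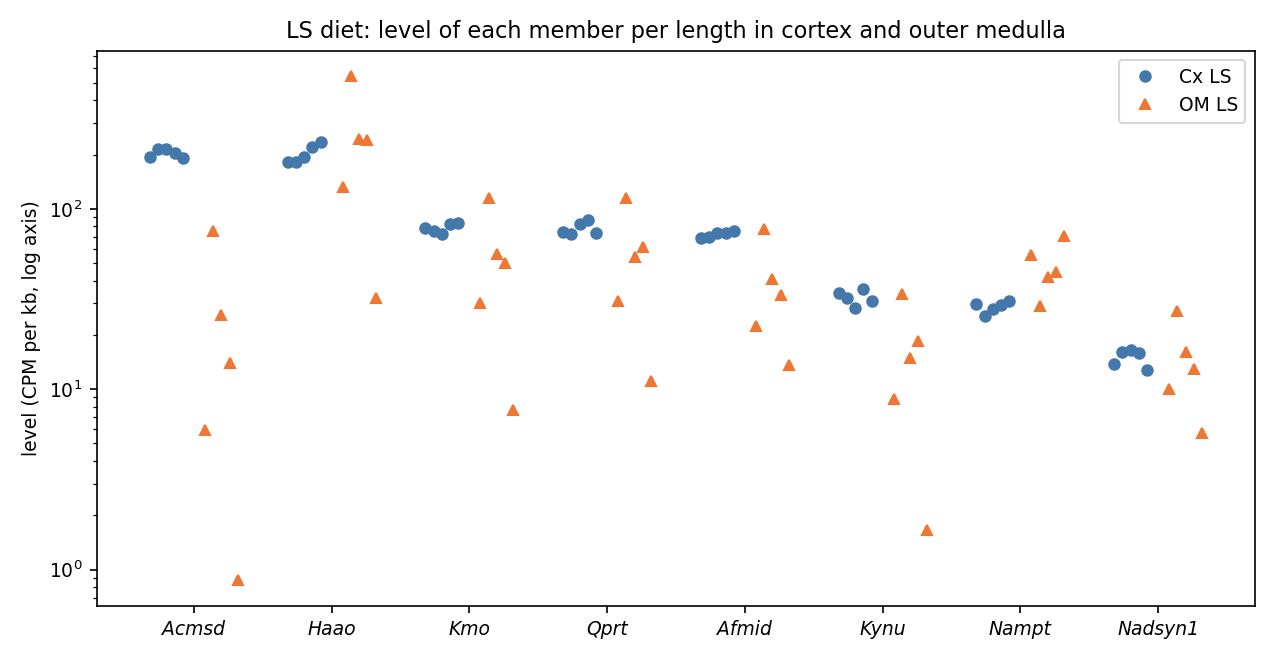
Level of each tested gene in CPM per kb of gene length (log axis) in the 5 Cx LS libraries (circles) and the 5 OM LS libraries (triangles), 1 point per library. The Cx libraries of a gene lie close together, the OM libraries spread widely, and every OM point of *Acmsd* lies below every Cx point.

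In the Cx after 21 d of high salt, 6 of the 8 genes with enough counts to test were lower than on LS: *Acmsd*, *Kynu*, *Afmid*, *Qprt*, *Haao* and *Nadsyn1*, by 0.39 to 0.50 on the log2 scale. None was higher. With total counts in place of TMM *Haao*, *Qprt* and *Nadsyn1* were no longer called (adjusted *P* = 0.0512, 0.0503 and 0.0941), and in the fit of all 30 libraries, which shares the wider spread of the OM, none of the 6 was called. This TMM direction turned when libraries were scaled to the proximal tubule markers, whose median had fallen further (−0.71). In the whole Cx HS21 comparison 20.5% of 14299 tested genes were lowered and 18.9% were raised, so that lowered genes were common. The median log2 ratio of the 8 genes was −0.40 beside 0.00 over all genes tested. As the genes were chosen with earlier results of these data known, this contrast is a description only. Non-overlap of the 5 HS21 libraries below the 5 LS libraries was found for 3 of the 8 (*Afmid*, *Kynu* and *Acmsd*) and for 14.6% of all tested genes. Calls are from edgeR's quasi-likelihood test at a Benjamini-Hochberg adjusted *P* under 0.05 over all genes, ratios are given with their SE, and as HS14 and HS21 were compared with the same LS libraries, the 2 comparisons are not independent.

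Entry into the pathway was almost silent. *Ido1*, the interferon-inducible dioxygenase (chromosome 16, 72216326 to 72228098, Rnor_6.0), had 0 counts in 27 of 30 libraries. In Cx HS21 its counts were 0, 0, 0, 1 and 3 (replicates 11 to 15), and in OM HS21 they were 0, 0, 0, 0 and 6. A count of 0 allows a level of up to 0.149 to 0.536 CPM in a library (3 counts, counting error only). No LS or HS14 library had a count, and the gene was too low to test. Other enzymes that open the ring, *Tdo2* and *Ido2*, were also too low to test in the Cx. *Ifng* was as well, yet the 14 tested genes of a list of 15 interferon-gamma response genes were all raised in Cx HS21, with a median log2 ratio of 1.93.

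*Afmid* encodes the formamidase that releases kynurenine (chromosome 10, 106828981 to 106844314). It measured 172, 176, 185, 184 and 188 CPM in Cx LS (replicates 1 to 5), 160.3, 175, 192, 160.1 and 174 CPM in Cx HS14 (replicates 6 to 10) and 105, 139, 162, 135 and 149.6 CPM in Cx HS21 (replicates 11 to 15). All HS21 libraries lay below all LS libraries, with replicate 11 the lowest. The log2 ratio was −0.39 ± 0.094 at HS21 (adjusted *P* = 0.00651) and −0.08 ± 0.058 at HS14 (adjusted *P* = 0.535).

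*Kmo* encodes the mitochondrial monooxygenase that hydroxylates kynurenine (chromosome 13, 93684437 to 93716227). Its levels were 161, 156, 149.8, 169 and 173 CPM in Cx LS, 165, 205, 189, 159 and 146 CPM in Cx HS14 and 152, 130.2, 144, 159 and 131 CPM in Cx HS21. The HS21 and LS libraries overlapped. With a log2 ratio of −0.18 ± 0.066 and an adjusted *P* of 0.0505 at HS21, the difference missed the threshold, and it passed when either Cx LS replicate 3 (adjusted *P* = 0.0371) or Cx HS21 replicate 14 (adjusted *P* = 0.0306) was left out.

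*Kynu* encodes kynureninase, which cleaves the side chain (chromosome 3, 28416954 to 28566928). It measured 61.7, 57.9, 50.5, 65.1 and 55.4 CPM in Cx LS, 53.6, 61.2, 67.8, 70.8 and 41.1 CPM in Cx HS14 and 43.1, 43.1, 49.0, 44.3 and 40.8 CPM in Cx HS21. The HS21 libraries were tightly grouped below the LS libraries, and of the HS14 libraries only replicate 10 lay in the HS21 range. The log2 ratio was −0.40 ± 0.075 at HS21 (adjusted *P* = 0.00155) and 0.01 ± 0.13 at HS14 (adjusted *P* = 0.979).

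*Haao* encodes the dioxygenase that opens the ring of hydroxyanthranilate (chromosome 6, 7045152 to 7058314). Its levels were 229, 227, 242, 277 and 294 CPM in Cx LS, 238, 229.8, 208, 196 and 215 CPM in Cx HS14 and 188, 169, 243, 190.2 and 158 CPM in Cx HS21. HS21 replicate 13 alone reached the LS range. The log2 ratio was −0.42 ± 0.11 at HS21 (adjusted *P* = 0.0118) and −0.23 ± 0.083 at HS14 (adjusted *P* = 0.172).

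*Acmsd*, the branch enzyme that withholds carbon from NAD (chromosome 13, 44424689 to 44468734), measured 195, 216, 217, 207 and 194 CPM in Cx LS, 266, 243, 327, 266 and 169 CPM in Cx HS14 and 139, 133, 153, 156 and 146 CPM in Cx HS21. Of the HS14 libraries 4 lay above every LS library, and the other, replicate 10, lay below them, while all HS21 libraries lay below all others in the Cx. The log2 ratio at HS14 was 0.30 ± 0.13 (unadjusted *P* = 0.042 in the edgeR test, adjusted *P* = 0.266), and without Cx HS14 replicate 10 it was 0.41 ± 0.078 (adjusted *P* = 0.0184). At HS21 it was −0.50 ± 0.057 (adjusted *P* = 7.89e-05).

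*Qprt* encodes quinolinate phosphoribosyltransferase (chromosome 1, 198544262 to 198559568). Its levels were 90.0, 87.0, 99.6, 105 and 88.1 CPM in Cx LS, 82.6, 89.5, 89.6, 83.0 and 88.9 CPM in Cx HS14 and 68.1, 63.8, 90.7, 74.9 and 61.2 CPM in Cx HS21. Again HS21 replicate 13 was the only library of its group inside the LS range. The log2 ratio was −0.39 ± 0.10 at HS21 (adjusted *P* = 0.0100) and −0.12 ± 0.061 at HS14 (adjusted *P* = 0.334).

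The balance between the branch enzyme and QPRT was followed as a ratio per length. The log2 of *Acmsd* over *Qprt* in CPM per kb was 1.39 ± 0.12 (SD, n = 5) in Cx LS, 1.77 ± 0.37 in Cx HS14 and 1.28 ± 0.18 in Cx HS21, and in OM LS it was −1.97 ± 1.20. The 3 Cx groups overlapped, and in every OM LS library *Qprt* was the higher of the pair.

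*Nadsyn1* encodes NAD synthetase, the last step (chromosome 1, 216985714 to 217013702). It measured 36.9, 43.1, 44.3, 42.7 and 34.3 CPM in Cx LS, 41.5, 40.2, 41.4, 38.5 and 38.3 CPM in Cx HS14 and 26.7, 22.8, 30.2, 34.1 and 37.0 CPM in Cx HS21. HS21 replicate 15 overlapped the LS libraries and the other 4 lay below them. The log2 ratio was −0.42 ± 0.13 at HS21 (adjusted *P* = 0.0207) and −0.02 ± 0.074 at HS14 (adjusted *P* = 0.938). Without Cx HS21 replicate 11 the HS21 ratio was −0.36 and was no longer called (adjusted *P* = 0.0605).

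The salvage enzyme went the other way without being called. *Nampt* (chromosome 6, 52122085 to 52156472) measured 79.7, 68.0, 75.1, 78.6 and 83.1 CPM in Cx LS, 78.6, 70.0, 95.3, 84.2 and 83.4 CPM in Cx HS14 and 84.5, 72.7, 76.7, 103 and 128 CPM in Cx HS21. Replicates 14 and 15 of HS21 were the highest Cx libraries, and the other 3 lay within or close to the LS range. The log2 ratio was 0.27 ± 0.14 at HS21 (adjusted *P* = 0.144), and 0.40 (adjusted *P* = 0.0406) with total counts in place of TMM. Replicates 14 and 15 were also the Cx libraries with *Ido1* counts.

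*Nnmt*, the nicotinamide methyltransferase (chromosome 8, 52925175 to 52937972), was near the detection limit. Its counts were 0, 1, 1, 3 and 0 in Cx LS, 1, 0, 0, 5 and 1 in Cx HS14 and 2, 10, 4, 11 and 3 in Cx HS21. The low-count filter removed it, while without the filter the HS21 counts were called higher than the LS counts by edgeR (adjusted *P* = 0.0493) and also by DESeq2 (adjusted *P* = 0.0429). The groups overlapped.

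**Figure D2:**
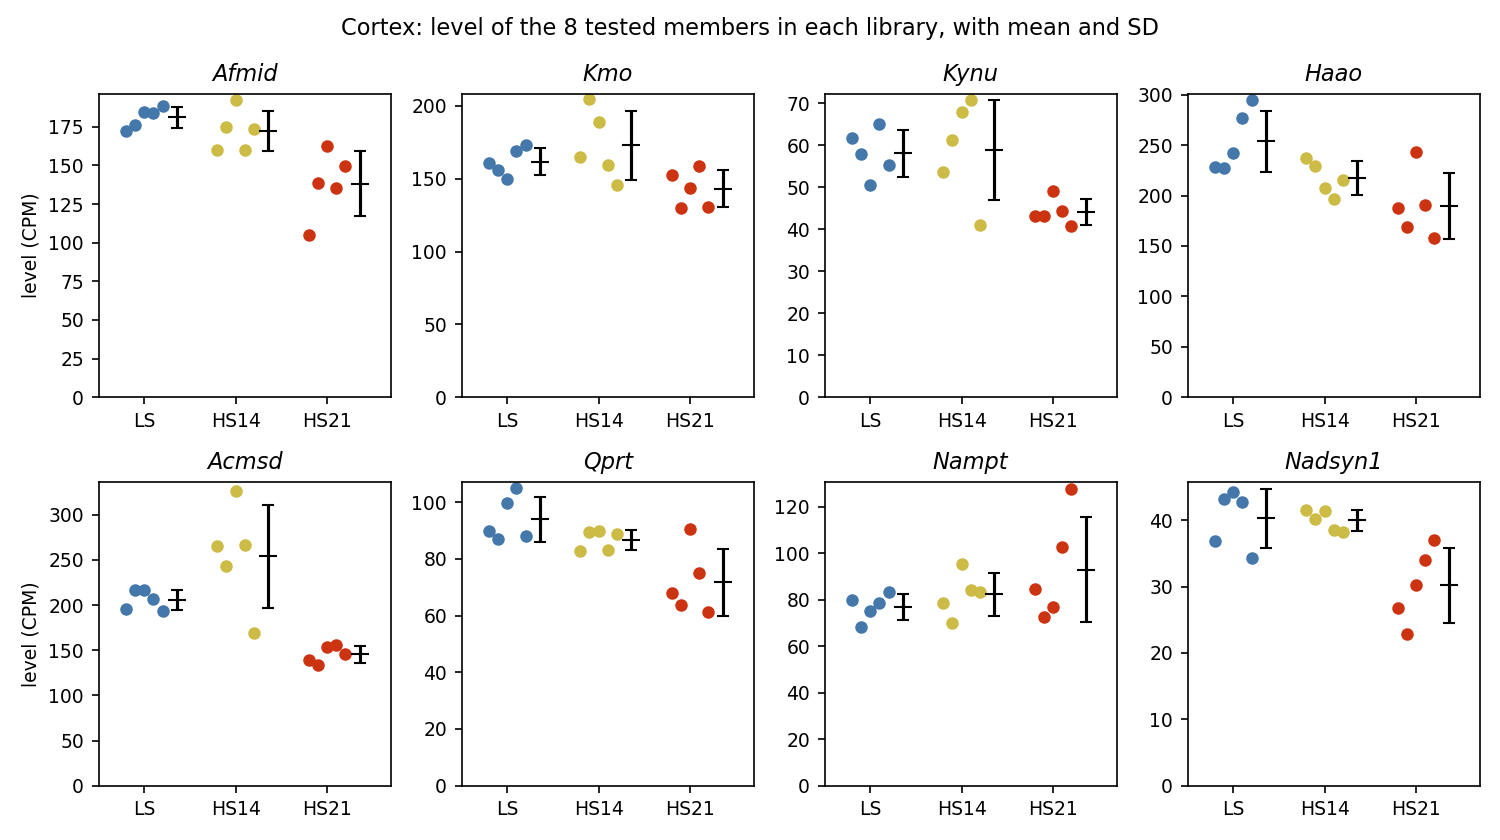
Level in CPM (linear axis from 0) of the 8 tested genes in each Cx library, by diet group, with the mean and SD of 5 libraries beside the points. HS21 points of *Afmid*, *Kynu* and *Acmsd* lie below every LS point, and *Nampt* has its highest 2 points at HS21. The levels are scaled by TMM, and scaling to proximal tubule markers, which put the median of all genes at 0.74, turned the HS21 log2 ratios of 7 of these genes positive.

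At HS14 none of the 8 genes was called in the Cx, where 1.14% of 14181 tested genes were raised and 1.18% lowered. In edgeR 2 of the 8 had an unadjusted *P* under 0.05 (*Acmsd* and *Haao*, in opposite directions), and DESeq2 called 0. The median log2 ratio of the 8 was −0.0029. From HS14 to HS21 the fall was called for 3 of the 8, with 9.69% of 14395 genes lowered and 6.5% raised. *Acmsd* fell by 0.80 on the log2 scale (SE 0.14, adjusted *P* = 0.00745), *Kynu* by 0.41 (SE 0.13, adjusted *P* = 0.0457) and *Nadsyn1* by 0.40 (SE 0.12, adjusted *P* = 0.0378). The HS21 libraries of *Acmsd* and *Nadsyn1* lay below all HS14 libraries, as did those of 6.11% of genes. The calls of *Kynu* and *Nadsyn1* were close to the threshold. Leaving out 1 library at a time gave 1 to 5 lowered genes: only *Acmsd* was left without Cx HS14 replicate 6, 7, 8 or 9 or Cx HS21 replicate 11 or 12, and 5 were called without Cx HS21 replicate 13. Without Cx HS14 replicate 10 the fall of *Kmo* was called as well (−0.33 ± 0.091, adjusted *P* = 0.0268).

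**Figure D3:**
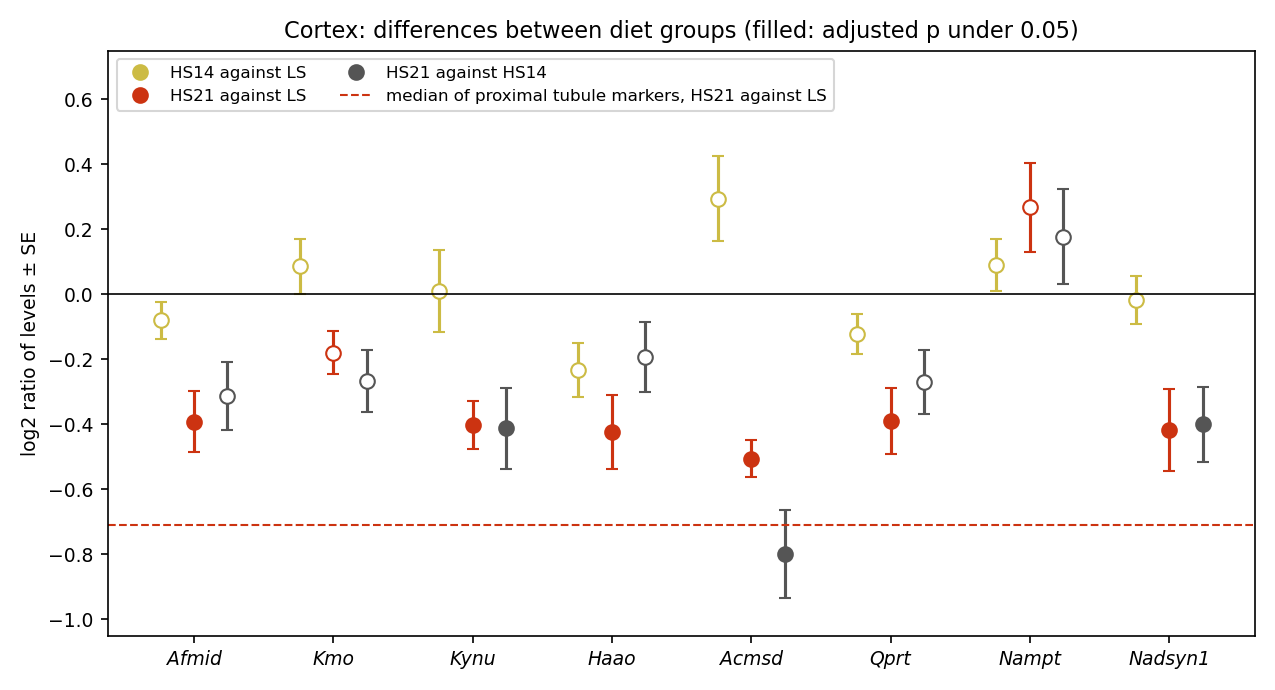
Log2 ratio of levels (y axis, TMM scaling) with its SE for each of the 8 tested genes in the Cx at HS14 against LS, HS21 against LS and HS21 against HS14. Filled points had an adjusted *P* under 0.05, and the dashed line is the median of the 19 proximal tubule markers at HS21 against LS (−0.71), below the HS21 against LS point of every gene shown. Scaled to those markers, the 6 lowered genes had positive ratios of 0.23 to 0.34, below the median of 0.74 over all genes on that scale.

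Markers of other cells moved in the same comparison. The 4 markers listed for the straight part of the proximal tubule were mixed in Cx HS21, with 1 raised and 1 lowered (median log2 ratio 0.49). Of the 19 proximal tubule markers used here, which do not include those 4, 18 were lowered in Cx HS21 and none raised (the other was *Ggt1*). The median log2 ratio of the 19 was −0.71. Examples are *Slc34a1* (−0.45), *Slc5a2* (−0.68) and *Slc5a12* (−1.03), carriers of phosphate, glucose and lactate. Their summed level was 25129 to 27784 CPM in Cx LS, 18360 to 25708 CPM in Cx HS14 and 14308 to 19369 CPM in Cx HS21, and no marker was at 0 in all libraries of a group. In bulk tissue, fewer proximal tubule cells and less RNA per cell cannot be told apart. Scaled so that the mean log2 level of these markers was equal in all libraries, the HS21 ratios in the Cx were 0.23 ± 0.065 for *Acmsd*, 0.30 ± 0.089 for *Haao*, 0.31 ± 0.12 for *Nadsyn1*, 0.33 ± 0.074 for *Kynu*, 0.34 ± 0.077 for *Qprt*, 0.34 ± 0.091 for *Afmid*, 0.56 ± 0.071 for *Kmo* and 1.01 ± 0.14 for *Nampt*. All 8 were then called raised, with adjusted *P* from 1.46e-05 to 0.029, on a scale where the median of all genes was 0.74 and 12337 genes were raised. With TMM each of the 8 genes had a ratio above the median of the markers. *Acmsd* at HS14 was also called on that scale (0.47 ± 0.10, adjusted *P* = 0.0285), where the median of all genes was 0.20.

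Leukocyte genes rose in the same libraries. All tested markers were raised in Cx HS21 for leukocytes (6 tested of 7 listed), macrophages (9 of 10) and T cells (7 of 9), with median log2 ratios of 1.83, 1.57 and 2.57. The summed leukocyte level was 116 to 167 CPM in Cx LS, 168 to 242 CPM in Cx HS14 and 224 to 664 CPM in Cx HS21, and no listed leukocyte marker was at 0 throughout a group. Markers of other nephron segments were also raised, in 6 of 7 tested for the collecting duct (median 0.73), 3 of 3 for the distal convoluted tubule (0.70), 3 of 5 for the thick ascending limb (0.55) and 4 of 5 for podocytes (0.33), as were 4 of 5 tubule injury genes (1.70), and none of these was lowered. Their part in the levels of the pathway genes was not tested.

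The genes around the pathway were taken from lists of their functions. In Cx HS21, 20.5% of all tested genes were lowered and 18.9% raised. Of 11 tested genes that bring in tryptophan or use it otherwise, 7 were lowered there. They were genes of transporters or their subunits, namely *Slc7a8* (−0.75 ± 0.056), *Slc6a19* (−0.70 ± 0.049), *Slc16a10* (−0.64 ± 0.086), *Slc3a2* (−0.57 ± 0.050) and *Slc36a4* (−0.40 ± 0.10), with *Ddc* (−0.52 ± 0.075), a decarboxylase of aromatic amino acids, and *Maoa* (−0.40 ± 0.077), an oxidase of amines. The other 2 called genes were raised. They were *Slc7a5*, a transporter of large neutral amino acids in dividing cells (0.97 ± 0.17), and *Il4i1*, an amino acid oxidase of myeloid cells (0.77 ± 0.17). Of 6 genes in the side branches of kynurenine and of the oxidation arm below ACMSD, 4 were lowered and none raised: *Aldh8a1* (−0.59 ± 0.072), *Gcdh* (−0.45 ± 0.086), *Kyat1* (−0.45 ± 0.069) and *Got2* (−0.21 ± 0.048). *Aldh8a1* and *Gcdh* act downstream of *Acmsd*. The median log2 ratios of these lists were −0.40 and −0.33.

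Of 11 tested genes of other routes to NAD, 5 were lowered and 2 raised, beside 20.5% lowered and 18.9% raised over all genes. Lowered were *Nt5e*, which yields nucleosides outside the cell (−1.17 ± 0.086), *Nmnat3* (−0.70 ± 0.11), the kinases that make NADP, *Nadk2* (−0.32 ± 0.093) and *Nadk* (−0.16 ± 0.041), and *Naprt*, which starts from nicotinic acid (−0.28 ± 0.073). Raised were *Pnp*, a nucleoside phosphorylase (0.48 ± 0.11), and *Nmrk1*, the nicotinamide riboside kinase (0.39 ± 0.12). The median was −0.17. Of 18 tested consumers of NAD 4 were raised and 3 lowered, shares near those over all genes. Raised were the ectoenzymes *Cd38* (1.31 ± 0.36) and *Bst1* (1.19 ± 0.30), with *Parp10* (0.68 ± 0.23) and *Parp3* (0.59 ± 0.13), and lowered were *Tnks* (−0.40 ± 0.11), *Parp1* (−0.27 ± 0.054) and *Sirt1* (−0.24 ± 0.085). *Cd38* and *Bst1* are also leukocyte surface enzymes. Kynurenine is a ligand of the aryl hydrocarbon receptor. The list for that receptor's system and targets, which also holds the coactivator *Ppargc1a*, had 8 tested genes. Of these 3 were raised, *Cyp1a1* (2.67 ± 0.68), *Cyp1b1* (1.90 ± 0.54) and *Nqo1* (0.56 ± 0.15), and 2 were lowered, *Tiparp* (−0.63 ± 0.099) and *Arnt* (−0.39 ± 0.053). *Cyp1a1* was low, at 0.596 ± 0.372 CPM (SD, n = 5) in Cx LS and 3.90 ± 3.58 CPM in Cx HS21, and its groups overlapped. At HS14 no gene of these 5 lists was called in the Cx.

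From HS14 to HS21 in the Cx, where 9.69% of all genes were lowered and 6.5% raised, 7 of 11 tested genes of tryptophan entry and use were lowered, namely *Slc6a19* (−0.78 ± 0.15), *Slc7a8* (−0.69 ± 0.13), *Slc16a10* (−0.64 ± 0.13), *Ddc* (−0.51 ± 0.13), *Slc3a2* (−0.50 ± 0.11), *Slc36a4* (−0.36 ± 0.097) and *Maoa* (−0.31 ± 0.088), and *Il4i1* was raised (0.68 ± 0.18). *Aldh8a1* (−0.42 ± 0.092), *Kyat1* (−0.32 ± 0.084) and *Got2* (−0.22 ± 0.062) were the lowered genes among 6 tested in the side branches. Of 11 tested other NAD genes *Nt5e* (−0.60 ± 0.17), *Nmnat3* (−0.44 ± 0.11), *Naprt* (−0.32 ± 0.082) and *Nnt*, the mitochondrial transhydrogenase (−0.26 ± 0.073), were lowered, and *Nmrk1* (0.48 ± 0.13) and *Pnp* (0.48 ± 0.11) were raised. *Tnks* (−0.47 ± 0.11) was the only one called of 18 tested consumers, and *Tiparp* (−0.56 ± 0.10) and *Arnt* (−0.28 ± 0.083) the only ones of 7 tested genes of the aryl hydrocarbon receptor list.

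In the OM the libraries of a group differed more than the diets did. *Acmsd* measured 6.03, 76.6, 26.0, 14.2 and 0.88 CPM in OM LS (replicates 1 to 5), 22.8, 19.8, 7.65, 19.3 and 11.2 CPM in OM HS14 and 7.78, 19.95, 29.7, 44.0 and 36.7 CPM in OM HS21. *Haao* measured 166, 683, 305, 303 and 40.1 CPM in OM LS, 283, 385, 98.2, 180.0 and 60.1 CPM in OM HS14 and 97.4, 215, 355, 311 and 315 CPM in OM HS21. Both were highest in OM LS replicate 2 and lowest in OM LS replicate 5 among all OM libraries. The same held within OM LS for 7 of the 8 genes at either end, the exception being *Nampt*, which was lowest in replicate 2 and highest in replicate 5. Over the 15 OM libraries the highest level was 87.1 times the lowest for *Acmsd*, 20.3 times for *Kynu*, 17.0 times for *Haao*, 14.95 times for *Kmo*, 13.5 times for *Qprt*, 6.68 times for *Afmid*, 4.75 times for *Nadsyn1* and 2.63 times for *Nampt*. Over the 15 Cx libraries these ratios ran from 1.57 (*Kmo*) to 2.45 (*Acmsd*). The summed proximal tubule markers were 2041 to 26521 CPM in OM LS, 4300 to 12175 CPM in OM HS14 and 4382 to 12360 CPM in OM HS21, with no marker at 0 throughout a group. The mix of markers in this sum differed between the tissues on LS, where 12 of 19 were lower in the OM and 2 higher. *Slc3a1*, one of those higher, averaged 3658 CPM in OM LS and 1332 CPM in Cx LS. *Slc5a2*, one of those lower, averaged 16.3 CPM and 782 CPM.

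**Figure D4:**
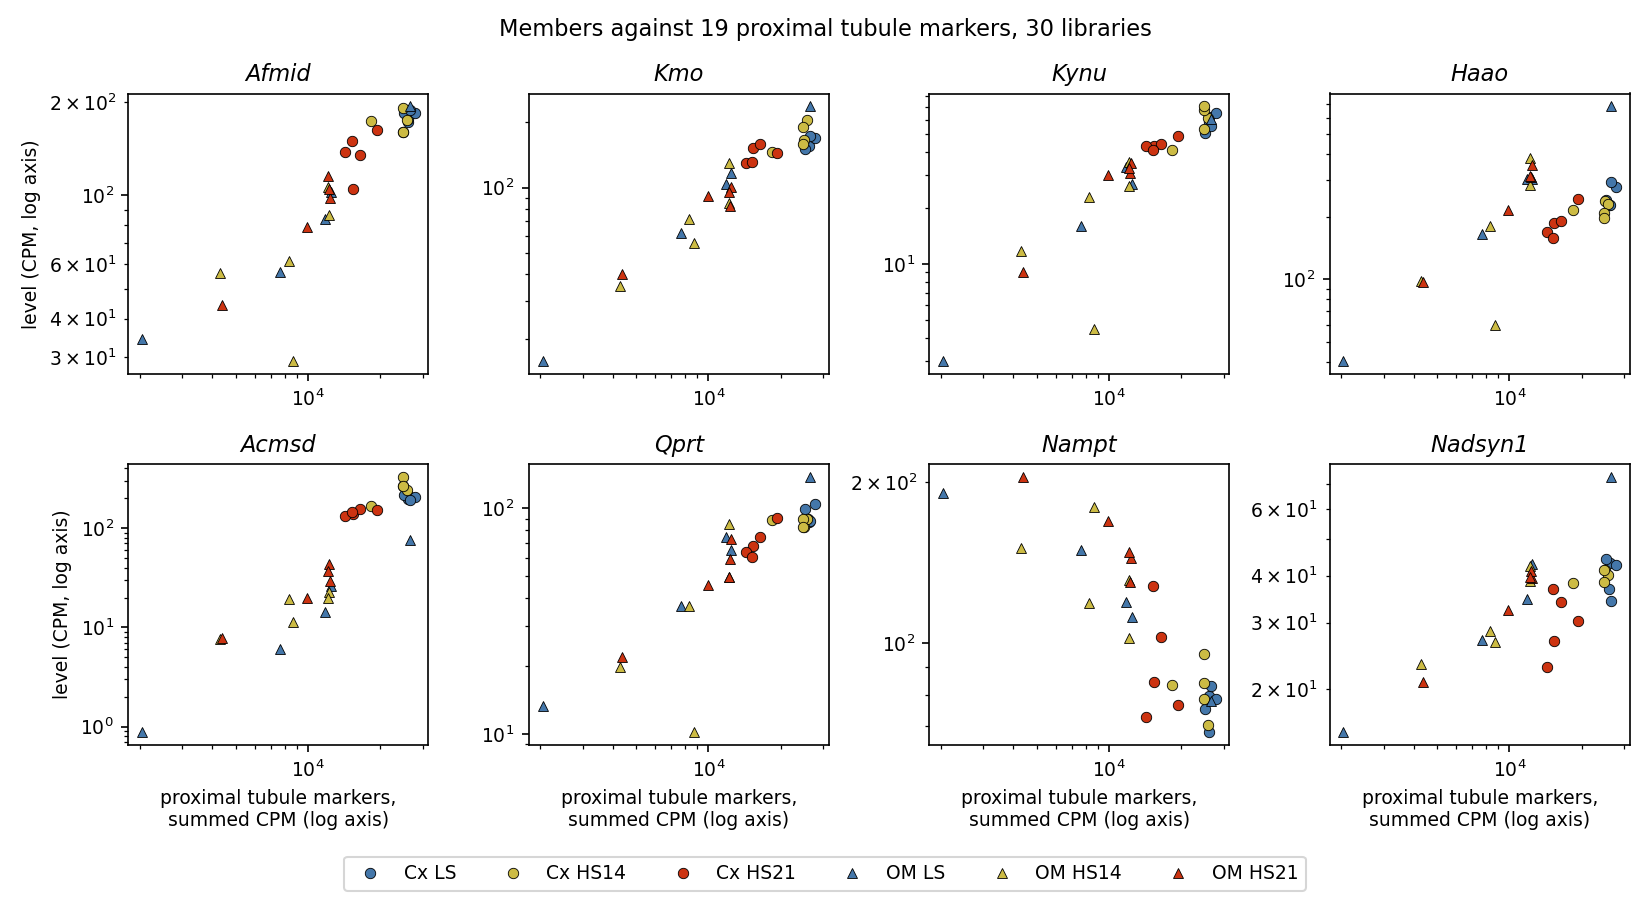
Level in CPM of each tested gene (y, log axis) against the summed CPM of 19 proximal tubule markers (x, log axis) in the 15 Cx libraries (circles) and the 15 OM libraries (triangles), coloured by diet. In the OM 7 genes are highest in the library with the most marker (OM LS replicate 2) and *Nampt* is lowest there. Apart from that library, the OM libraries hold less marker than any Cx library. The mix of markers in the sum differs between the tissues. Libraries share their scaling and tissue composition, so the points are a description.

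None of the 8 genes was called in the OM at HS14 or HS21. In edgeR 0 of the 8 had an unadjusted *P* under 0.05 in either comparison, and DESeq2 called 0. At HS14 0.00694% of 14417 genes were raised and 0% lowered, and at HS21 0.639% of 14555 genes were raised and 0.131% lowered. The SE of the log2 ratios was 0.22 to 0.86 at HS21, against 0.057 to 0.14 in the Cx, and for the 6 genes called in the Cx it was 0.36 to 0.86, so that ratios of the size found there were not detectable at this spread. At HS21 the ratio was −0.40 ± 0.52 for *Qprt*, −0.39 ± 0.55 for *Kmo* and 0.16 ± 0.86 for *Acmsd*. Without OM LS replicates 2 and 5 no gene was called either, and *Acmsd* was at 0.82 ± 0.58 (adjusted *P* = 0.589). The change with diet was not shown to differ between the tissues. Of the 8 genes 0 were called in the test of the OM change minus the Cx change at HS14, where 0% of 15091 genes were raised and 0% lowered, or at HS21, where 0.448% of 15194 genes were raised and 0.217% lowered, and 0 had an unadjusted *P* under 0.05 in edgeR or a call in DESeq2. For *Acmsd* that difference was 0.67 ± 0.88 at HS21 (adjusted *P* = 0.754), and 1.35 ± 0.53 without the 2 outlying OM LS libraries (adjusted *P* = 0.152). Leukocyte markers were raised in OM HS21 for 4 of 6 tested, with a summed level of 310 to 455 CPM against 95.2 to 216 CPM in OM LS.

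Between the tissues on LS, *Acmsd* was lower in the OM and *Nampt* higher. *Acmsd* had a log2 ratio of −3.06 ± 0.83 (adjusted *P* = 0.0137), and all 5 OM libraries lay below all 5 Cx libraries, as for 15.7% of the 14295 genes tested. *Nampt* measured 149, 77.8, 112, 119 and 191 CPM in OM LS, of which replicate 2 alone fell in the Cx LS range, and had a ratio of 0.75 ± 0.20 (adjusted *P* = 0.0116). In this comparison 21.3% of genes were higher in the OM and 19.5% lower. *Afmid* (−0.94 ± 0.37, adjusted *P* = 0.0677), *Kynu* (−1.06 ± 0.54), *Kmo* (−0.60 ± 0.51), *Qprt* (−0.52 ± 0.46), *Haao* (0.24 ± 0.54) and *Nadsyn1* (−0.07 ± 0.33) were not called. Both tissues were dissected from the same kidneys, and with the replicate number as a block *Afmid* was called lower too (−1.18 ± 0.36, adjusted *P* = 0.046), while *Haao* turned to −0.18 ± 0.62 without a call. Without OM LS replicates 2 and 5, an alternative chosen after their marker levels were seen, 5 genes were lower in the OM, namely *Acmsd* (−3.75 ± 0.36), *Kynu* (−1.20 ± 0.20), *Afmid* (−1.17 ± 0.16), *Kmo* (−0.79 ± 0.17) and *Qprt* (−0.68 ± 0.19), and *Nampt* stayed higher (0.71 ± 0.096). *Haao* was then at 0.01 ± 0.18. Without OM LS replicate 2 alone 3 were lower (*Afmid*, *Acmsd* and *Kynu*), and *Haao* was at −0.33 ± 0.45.

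*Nnmt* was the gene of lowest level that still separated the tissues. Its counts were 6, 8, 10, 10 and 10 in OM LS against 0, 1, 1, 3 and 0 in Cx LS, so that every OM library lay above every Cx library, as for 13.3% of the genes tested. The filter removed it, and without the filter edgeR gave an adjusted *P* of 0.00572. In CPM it was 0.369 to 0.684 in OM LS, 0.179 to 1.43 in OM HS14, with the shallowest library (8 counts) the highest, and 0.280 to 0.638 in OM HS21.

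Neighbouring enzymes separated the tissues too. On LS the proximal tubule markers had a median log2 ratio of −2.14 in the OM against the Cx (12 of 19 lowered, 2 raised). The markers of the straight part of the proximal tubule, 4 genes, summed to 955 to 6491 CPM in OM LS and to 136 to 300 CPM in Cx LS. Most of the OM LS sum was *Slc7a13*, with a mean of 3754 CPM. Of these 4 genes 2 were raised in the OM and 1, *Slc5a8* (−1.65 ± 0.52), was lowered. *Aadat*, which turns kynurenine into kynurenic acid, was higher in the OM (3.36 ± 0.49, 1732 CPM against 169 CPM), whereas *Kyat1* (−1.61 ± 0.35) and *Got2* (−0.84 ± 0.089), which can do the same, were lower. *Slc22a13*, a carrier of nicotinate, was higher in the OM at 52.3 ± 32.3 CPM (SD, n = 5) against 0.298 ± 0.202 CPM in the Cx, where it was close to the level that 3 counts give in a library, so no ratio is stated (adjusted *P* = 0.000109). *Nmnat3* (−1.58 ± 0.12), *Aox1* (6.24 CPM against 24.8 CPM, adjusted *P* = 0.000767) and *Slc25a51*, the mitochondrial NAD carrier (−0.62 ± 0.19), were lower.

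Genes of tryptophan carriers, or of their subunits, of the proximal tubule brush border and its base were much lower in the OM, among them *Slc6a19* (−5.69 ± 0.97), *Slc7a8* (−4.61 ± 0.50), *Slc3a2* (−1.78 ± 0.12) and *Slc16a10* (−1.66 ± 0.16), as was *Ddc* (−5.15 ± 0.93). *Maoa* was lower by a smaller amount (−0.40 ± 0.085), and *Tph1*, at 0.103 CPM in OM LS against 1.46 CPM in Cx LS, was called lower with OM LS at the floor, so no ratio is stated. *Slc7a5* (1.65 ± 0.20), *Inmt* (1.36 ± 0.42) and *Il4i1* (0.50 ± 0.17) were higher. Among the consumers of NAD *Bst1* (2.73 ± 0.56), *Parp3* (1.12 ± 0.087), *Sirt5* (0.64 ± 0.097) and *Sirt4* (0.48 ± 0.15) were higher in the OM and *Cd38* (−1.11 ± 0.24), *Sirt3* (−0.56 ± 0.099) and *Parp1* (−0.50 ± 0.073) lower. *Cyp1a1* was higher, at 111 ± 84.1 CPM (SD, n = 5) in OM LS and 0.596 ± 0.372 CPM in Cx LS. As 3 counts give 0.193 to 0.235 CPM in a Cx LS library, its log2 ratio of 7.49 ± 1.02 rests on a low Cx level. *Nqo1* (1.92 ± 0.25) and *Cyp1b1* (1.44 ± 0.49) were also higher, and *Tiparp* (−0.93 ± 0.14), *Arnt* (−0.30 ± 0.074) and *Ahrr* (0.307 CPM in OM LS, close to the floor, against 2.34 CPM in Cx LS) were lower. With the high salt diet in the OM, *Parp3* at HS21 (0.40 ± 0.074, adjusted *P* = 0.0429) was the only gene of the 5 lists that was called.

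For each gene the others most like it across the 15 Cx libraries were looked up. By Pearson's *r* of log2 CPM, over the 13346 protein-coding genes that averaged 1 CPM or more, *Acmsd* was close to *Tas1r2* (0.97) and *Dhtkd1* (0.96). *Qprt* was most like *Eif5a* (0.96), *Asrgl1* and *Ush1c* (0.94 each), and *Kynu* most like *Wdr7* (0.95), *Syne3* and *Shmt1* (0.94 each). *Haao* went with *Akr7a3* (0.95), *Miox* and *Ugt1a8* (0.92 each), *Nadsyn1* with *Cyp4f1* and *Patl1* (0.92 each) and *Farsa* (0.89), *Afmid* with *LOC679247* (0.93) and *Psmd11* (0.92), and *Kmo* with *Mesdc2*, *Cox16* and *RGD1564541* (0.88 each). *Nampt* was close to *Ptafr*, the receptor of platelet-activating factor (0.87), and *Zyx* (0.85). The libraries share their diet groups and scaling, so these values describe the libraries and carry no *P*. Each is among the highest of 13346 genes over 15 libraries, so high values were bound to be found. The sparse counts of *Ido1* and *Nnmt* were left out of this description.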

How the data were processed

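Poly(A) RNA of whole tissue was sequenced without strand information, so reads of a gene and of an overlapping antisense gene cannot be told apart. Per the submitters' notes and the study's methods, the authors aligned reads with HISAT2 2.0.5 to Ensembl Rnor_6.0 and counted them with featureCounts 1.5.0-p3 (StringTie 1.3.3b was also run). The deposited values used here are raw counts per gene, together with the deposited gene length. Replicates were 5 libraries per tissue and diet, and the methods state 5 kidneys per group, each dissected into Cx and OM. In the check for copies, no 2 libraries of a group agreed within sampling noise.

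Counts were fitted in R 4.3.3 with edgeR 4.0.16 (TMM scaling, filterByExpr, quasi-likelihood test, the compared groups only, Benjamini-Hochberg adjustment over all genes, threshold 0.05). Alternatives used DESeq2 1.42.0, other scalings, no filter, all 30 libraries and each library left out. Log2 CPM used a prior count of 2. The edgeR script was tested on simulated data as a check of the code, not of its calibration here. All 10 pathway genes were named, with genes of 5 related lists that were called and up to 3 genes of like pattern for each; some of the latter are not reported here. Members and lists were chosen with earlier results of these data known. The sources do not say whether equal replicate numbers in Cx and OM mark the same kidney, so the block is an alternative. Floors cover counting error only, whereas the SE of a ratio also takes in the spread between libraries. The authors' FPKM columns and the columns of their own comparisons (group means, fold changes, p-values) were not used.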

Additional observations from a re-analysis of the deposited data

Results flagged for a closer look

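In OM HS21, replicate 11 lay apart from the other 4 libraries for *Kmo* and *Kynu*. *Kmo* was at 40.0 CPM with the nearest at 81.8 CPM, and *Kynu* at 8.99 CPM with the nearest at 30.2 CPM. The gap over the range, taken on log2 CPM and not on CPM, was 0.776 for *Kmo* and 0.889 for *Kynu*. Dixon's critical value for 5 samples is 0.71. These are 2 of the 48 groups tested (8 genes in 6 groups), and chance flags about 1 in 20. The summed proximal tubule markers of that library were 4382 CPM, the lowest of OM HS21, and their part in these values was not tested.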

How the results depend on the processing

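In Cx HS21 against LS, 6 lowered genes became 3 with total counts (*Afmid*, *Kynu*, *Acmsd*), 0 in the fit of all 30 libraries, where the OM spread is shared, and 0 when scaled to the proximal tubule markers. That last scaling turned the direction of *Afmid* (0.34), *Kmo* (0.56), *Kynu* (0.33), *Haao* (0.30), *Acmsd* (0.23), *Qprt* (0.34) and *Nadsyn1* (0.31), and it called 8 raised; its median over all genes was 0.74, with 12337 raised and 153 lowered. Raised genes numbered 1 with total counts (*Nampt*) and 1 each without the filter, with DESeq2 and with all 30 libraries (*Nnmt*). With total counts the median of all genes there was 0.13 in place of 0.0046, with 4401 raised and 1653 lowered, and between tissues 0.27 in place of 0.029. Leaving out 1 library gave 5 to 7 lowered and 0 raised. In Cx HS14 against LS, 1 gene (*Acmsd*) was raised when scaled to the markers, and 0 to 1 with a library left out. In Cx HS21 against HS14, 3 lowered became 4 with DESeq2 (*Afmid* added), 1 with total counts, 1 without the filter, 0 with all 30 libraries and 0 scaled to the markers, where 3 were raised and *Kynu* (0.14) and *Nadsyn1* (0.13) turned; leaving out 1 library gave 1 to 5. Between tissues on LS, 1 raised became 2 without the filter, with DESeq2 and with all 30 libraries (*Nnmt* added), and 1 lowered became 2 with DESeq2, with all 30 libraries and with the replicate block (*Afmid* added), 5 without OM LS replicates 2 and 5, and 1 to 3 with 1 library left out (1 raised throughout). Counts in the OM diet comparisons and the tissue differences were 0 under all alternatives run. Beyond these, the cause was not tested.

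Equal numbers in Cx and OM were checked as pairs. Deviations correlated over 0.1 in 10 of 15 pairs (−0.071 to 0.439 over 15494 genes), and 13 of 15 libraries correlated best with their own number, a hint from the data; both tissues came from the same kidneys, but the sources do not say that the numbers match them. With the replicate block the tissue comparison called 1 raised and 2 lowered genes, and 0 in both tissue differences.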
